A study of Mus musculus with 12 samples.

Results

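The Bcl2 family controls the mitochondrial pathway of apoptosis, and its RNA was measured here in mouse hearts carrying loss-of-function alleles of Lemd2, which encodes a protein of the inner nuclear membrane. The members were the 10 rows of the raw count matrix whose symbol was Bcl2, Bcl2l1, Bcl2l2, Mcl1, Bak1, Bok, Bcl2l11, Bid, Bad or Bmf, of 24062 symbols in all, and each of the 10 was found. All 10 passed the filter on low counts in each comparison.

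Hearts of 4 groups were sequenced as polyadenylated RNA, with 3 mice and 1 library per mouse in each group. Adult hearts came from 2-month-old mice that were WT or homozygous for the Lemd2 knockin allele c.T38>G (KI/KI), which is present in every cell of the animal. Hearts of postnatal day 1 (P1) came from Lemd2-floxed mice, whose loxP sites flank the first exon of Lemd2, and from cKO mice. In cKO mice that exon is removed in cardiomyocytes but not in the other cells of the heart. The Myh6-Cre transgene that removes it is driven by the cardiac α-myosin heavy chain promoter. Founders of both alleles were mated to C57BL/6N mice, and the floxed controls are described as carrying the loxP sites, with no mention of Cre, so that an effect of Cre itself and of the loss of Lemd2 cannot be told apart in the cKO.

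Members of this family act at the outer mitochondrial membrane. Bcl2, Bcl-xL (Bcl2l1), Bcl-w (Bcl2l2) and Mcl-1 hold the pore-forming effectors Bax and Bak (Bak1) in check or sequester the proteins that switch them on, and Bok is a related effector that largely escapes them. The BH3-only proteins Bim (Bcl2l11), Bid, Bad and Bmf carry a single short helix, the BH3 domain, that docks into the groove of the pro-survival members, and Bim and Bid can also engage the effectors directly. In cardiomyocytes, Mcl-1 is known to be needed for mitochondrial integrity and survival.

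The BH3 helix is the feature that members of opposite function share, so the 30 coding bases around its core are shown for each of the 10. They were read from the GENCODE vM21 transcripts on the GRCm38 genome, 5′ to 3′, and capitals mark the codon of the core leucine (methionine in Bcl2l2) and the codon of the aspartate that is shared by every member. The motif that found them, 1 match in each coding sequence, was written from general knowledge of the domain.
Bcl2: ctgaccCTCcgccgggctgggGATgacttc
Bcl2l1: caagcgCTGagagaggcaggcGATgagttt
Bcl2l2: caagccATGcgggctgctggaGACgagttt
Mcl1: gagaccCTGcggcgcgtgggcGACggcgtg
Bak1: cggcagCTTgctctcatcggaGATgatatt
Bok: acagtgCTGctgcgcttgggaGATgagctg
Bcl2l11: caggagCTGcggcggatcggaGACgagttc
Bid: agacatCTCgcccaaataggcGATgagatg
Bad: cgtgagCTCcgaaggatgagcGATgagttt
Bmf: agaaagCTTcagtgtattgcaGACcagttc
The pro-survival genes Bcl2 (chr1:106538178-106714274, minus strand), Bcl2l1 (chr2:152780668-152831728, minus), Bcl2l2 (chr14:54883377-54888234, plus) and Mcl1 (chr3:95658788-95663176, plus) lie on 4 chromosomes. The effector genes are Bak1 (chr17:27019810-27029009, minus) and Bok (chr1:93685660-93695764, plus). The BH3-only genes are Bcl2l11 (chr2:128126038-128162547, plus), Bid (chr6:120891930-120916853, minus), Bad (chr19:6941861-6951899, plus) and Bmf (chr2:118528757-118549687, minus). Exons of Bak1, Bid and Bad share 614, 628 and 524 bases with the opposite-strand genes Ggnbp1, Bcl2l13 and Gpr137, and whether reads were counted by strand is not given in the sources used here, so that reads from these stretches cannot be assigned.

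The libraries held 37063669 to 44789753 counts, and a count of 3 corresponded to 0.0599 to 0.0965 CPM. CPM is the count of a gene relative to the library size, after scaling of all 12 libraries by the trimmed mean of M-values (TMM). Where genes are compared with each other, levels are given as RPKM, which is CPM per kilobase of annotated exon. Lemd2 itself was at 32.0 to 34.8 CPM in WT, 24.8 to 25.7 in KI/KI, 24.3 to 25.4 in floxed and 6.59 to 13.1 in cKO hearts, so that the labels and the targeted gene matched. All 8 cardiomyocyte markers were detected in every heart. T cell and thymus markers summed to at most 2.04 CPM and B cell markers to at most 5.50 CPM. Y-linked genes were close to absent in the library of cKO 4 alone, and lung markers reached 100.9 CPM in WT 3 and 22.4 to 48.9 CPM in KI/KI 4, floxed 1, floxed 2 and cKO 4 with 0.506 to 5.25 CPM elsewhere. In these bulk samples, fewer cells of a type and less RNA per cell cannot be told apart, and p-values measure the spread between 3 mice per group.

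In every heart the pro-survival side was dominated by 1 gene. Mcl1 made up 70.1% to 76.5% of the summed RPKM of the 4 pro-survival members in each of the 12 hearts, with group means of 102.6 RPKM in WT, 110.2 in KI/KI, 69.2 in floxed and 78.5 in cKO. Bcl2l2 followed at 22.1, 21.9, 13.3 and 16.6 RPKM in the same order of groups. Bcl2 had the lowest group mean of the pro-survival members in all 4 groups, at 2.36, 5.59, 3.13 and 6.68 RPKM. In the single heart cKO 6 it was above Bcl2l1, at 7.71 against 6.65 RPKM. Bak1 was the most abundant pro-death member per kilobase, at 13.5, 14.0, 20.4 and 27.0 RPKM, and Bid was the least abundant of all 10, at 0.438, 0.703, 0.718 and 1.21 RPKM. These per-length orders were not tested, since they depend on the exon length assigned to each gene.

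**Figure D1:**
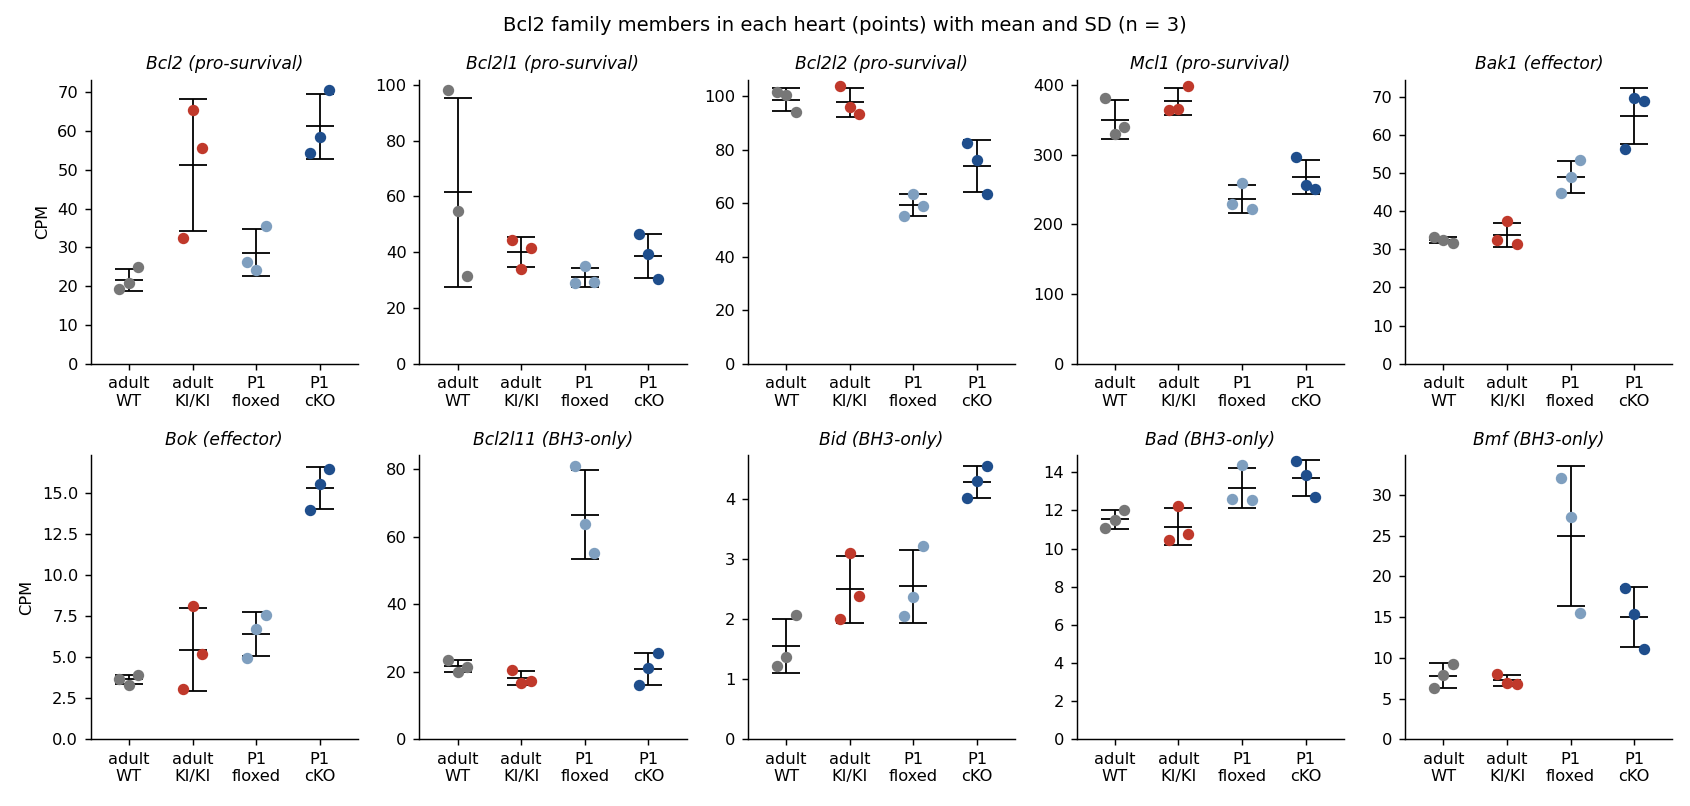
Level of each Bcl2 family member in CPM (vertical axes, each starting at 0 and on its own scale) in the 3 hearts of each group (points), with the mean and SD (bars). Bcl2l11 was at 55.2 to 80.9 CPM in the floxed hearts and at 25.5 CPM or less in every other heart, and Bok was highest in the 3 cKO hearts.

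The first comparison asked how the family differed in neonatal hearts without Lemd2 in their cardiomyocytes. Of the 10 members, 4 rose (Bcl2, Bak1, Bok and Bid) and 1 fell (Bcl2l11) in cKO against floxed hearts by edgeR's quasi-likelihood test at an adjusted p under 0.05, and 5 did not pass. Over all 15317 genes tested, 9.32% rose and 7.57% fell by the same rule. With a fold change above 2 as well, Bcl2 and Bok rose and Bcl2l11 fell, against 2.85% and 1.78% of all genes. The median log2 fold change of the 10 members was 0.32, and that of all genes tested was 0. In 5 of the 10 members the floxed and cKO hearts did not overlap, against 39.0% of all genes tested. Without floxed 1 the count of higher members was 1, and without floxed 2 or cKO 5 it was 2.

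Bcl2l11 encodes Bim, a BH3-only activator of cell death whose loss in mice leaves excess blood cells alive. It was at 80.9, 63.7 and 55.2 CPM in the floxed hearts and at 16.1, 21.1 and 25.5 CPM in the cKO hearts. Every cKO heart lay at less than 0.5 of the lowest floxed heart. The log2 fold change was -1.68 (SE 0.20, adjusted p = 0.00654, edgeR), a fall that kept an adjusted p of at most 0.0432 when any 1 of the 6 hearts was left out. The cKO level, 20.9 ± 4.7 CPM (SD, n = 3), stood beside 21.7 ± 1.7 in adult WT and 18.2 ± 2.1 in adult KI/KI hearts, so that the neonatal floxed hearts were the group that stood apart.

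Bcl2, the founding pro-survival member, moved the opposite way. It was at 26.2, 24.3 and 35.5 CPM in floxed and 54.4, 58.5 and 70.6 CPM in cKO hearts, each of which was above every floxed heart. Bcl2 rose by a log2 fold change of 1.09 (SE 0.16, adjusted p = 0.00904, edgeR), and without floxed 1 it was 1.03 with an adjusted p of 0.0645. The pair was called in opposite directions, so the ratio of Bcl2l11 to Bcl2 only restates both shifts, and it was not tested. In RPKM this ratio was 3.52, 3.00 and 1.77 in the floxed hearts and 0.338, 0.411 and 0.413 in the cKO hearts. Bcl2l11 was the more abundant of the pair in each floxed heart and Bcl2 in each cKO heart. The share of Bcl2 in the pro-survival sum was 2.65% to 4.39% in floxed and 4.90% to 7.56% in cKO hearts.

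The other pro-survival members were called in neither direction. Bcl2l2, which encodes Bcl-w, was at 55.2, 63.5 and 59.1 CPM in floxed and 82.4, 76.3 and 63.3 CPM in cKO hearts, with a log2 fold change of 0.32 (SE 0.12, adjusted p = 0.115, edgeR). Bcl2l1, the gene of Bcl-xL, was at 28.9, 34.9 and 29.2 against 46.4, 39.2 and 30.5 CPM, with a log2 fold change of 0.32 (SE 0.18, adjusted p = 0.233, edgeR). The cKO 6 heart was the lowest of its group for both genes, and without it Bcl2l2 (log2 0.43, adjusted p = 0.0194) and Bcl2l1 (log2 0.47, adjusted p = 0.0406) passed edgeR's threshold. Mcl1 was at 229.4, 258.9 and 221.6 against 296.3, 256.9 and 251.2 CPM, with a log2 fold change of 0.18 (SE 0.11, adjusted p = 0.282, edgeR).

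Both effectors on the list rose. Bok, which can permeabilize mitochondria without the help of BH3-only proteins and is otherwise removed by degradation from the endoplasmic reticulum, was at 4.94, 6.74 and 7.55 CPM in floxed and 13.9, 15.6 and 16.5 CPM in cKO hearts. The lowest cKO heart was above the highest floxed heart, with a log2 fold change of 1.25 (SE 0.16, adjusted p = 0.00723, edgeR), and the call held when any 1 heart was left out. Bak1, the gene of the effector Bak, was at 44.9, 48.9 and 53.4 against 56.5, 69.6 and 69.0 CPM, with a log2 fold change of 0.40 (SE 0.10, adjusted p = 0.0377, edgeR). Its groups did not overlap either, but the call was lost without floxed 1, floxed 2, floxed 3, cKO 5 or cKO 6, with log2 fold changes of 0.34 to 0.48 and adjusted p up to 0.173 over the 6 fits.

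The other BH3-only genes differed among themselves. Bid, whose protein carries the death receptor signal to mitochondria once caspase-8 has cut it, was at 2.05, 2.37 and 3.22 CPM in floxed and 4.01, 4.29 and 4.55 CPM in cKO hearts, with a log2 fold change of 0.74 (SE 0.19, adjusted p = 0.0428, edgeR). That call was kept only without floxed 3, and was lost when any of the other 5 hearts was left out, with log2 fold changes of 0.61 to 0.94 and adjusted p up to 0.167 over the 6 fits. Bcl2l13, which shares exon bases with Bid on the other strand, had a log2 fold change of -0.22 (SE 0.08, adjusted p = 0.110, edgeR).
Bmf, a BH3-only gene tied to the cytoskeleton and to loss of attachment, was at 32.1, 27.3 and 15.5 CPM in floxed and 18.5, 15.4 and 11.1 CPM in cKO hearts. The groups overlapped, and the log2 fold change of -0.73 (SE 0.31, adjusted p = 0.143, edgeR) was not called. Bad, which growth factor signalling holds inactive by phosphorylation, was at 12.6, 14.4 and 12.6 against 14.6, 13.9 and 12.7 CPM, with a log2 fold change of 0.06 (SE 0.12, adjusted p = 0.744, edgeR).

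**Figure D2:**
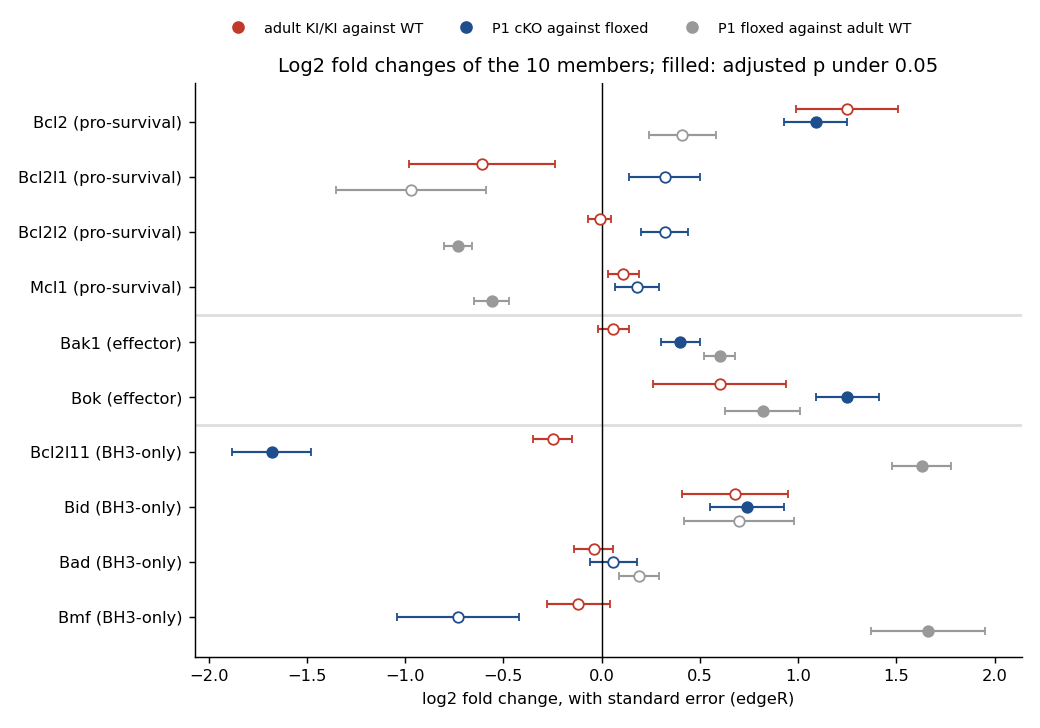
Log2 fold change (horizontal axis) with its standard error for each member, grouped as pro-survival, effector and BH3-only, in adult KI/KI against WT (red), P1 cKO against floxed (blue) and P1 floxed against adult WT (grey), filled where edgeR's adjusted p was under 0.05. Bcl2l11 stood at -1.68 in the cKO and at 1.63 between the control groups, and no adult KI/KI value was filled.

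Cell type markers moved with the cKO comparison as well. Of the 8 cardiomyocyte markers, 4 fell, and their sum was 52430 to 60950 CPM in floxed and 43850 to 47960 CPM in cKO hearts. Of the 6 fibroblast markers, Col1a1 and Tcf21 rose and Pdgfra, Dcn and Lum had log2 fold changes of -0.16, -0.14 and -0.16 that were not called (sum 2684 to 3010 against 3222 to 3853 CPM). Of the 4 smooth muscle markers 1 rose (Cnn1, log2 1.32) and 1 fell (Myh11, log2 -0.65), with sums of 1140 to 1553 against 1425 to 2510 CPM. Of the 6 endothelial markers 3 rose (1043 to 1140 against 1222 to 1550 CPM), of the 5 macrophage markers counted 2 rose (81.7 to 99.9 against 97.4 to 179.7 CPM), and of the 6 proliferation markers 2 rose (274.9 to 390.2 against 432.9 to 1072 CPM). Of the 8 T cell and thymus markers, 1 passed the filter on low counts and was not called by edgeR, and their sum was 0.832 to 2.04 against 0.878 to 1.31 CPM. The part of these shifts in the member values was not tested.

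The second comparison asked about the adult knockin. No member was called in KI/KI against WT hearts by edgeR, where 0% of the 14592 genes tested passed, and limma-voom called 0 members too. At an unadjusted p under 0.05, Bcl2 and Bid were higher and Bcl2l11 was lower, against 8.92% and 7.28% of all genes, and DESeq2 called 1 member, Bcl2, as higher, against 2.16% of all genes. Bcl2 was also the sole member whose groups did not overlap, against 21.8% of all genes tested. The median log2 fold change of the members was 0.02, and that of all genes was 0.

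Bcl2 was at 19.3, 20.7 and 24.8 CPM in WT and 32.3, 65.5 and 55.7 CPM in KI/KI hearts. Each KI/KI heart was above each WT heart, with KI/KI 4 nearest to them. The log2 fold change was 1.25 (SE 0.26) with an adjusted p of 0.193 by edgeR and 2.27e-04 by DESeq2, and without KI/KI 4 it was 1.49 with an edgeR adjusted p of 0.0346. Per kilobase, the WT hearts held 1.38, 1.10 and 0.993 times as much Bcl2l11 as Bcl2 RNA in RPKM, and the KI/KI hearts 0.730, 0.292 and 0.352 times as much. This ratio was taken up because of the calls at P1 and was not tested. Of the pair, Bcl2 alone had adult groups that did not overlap.

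The remaining pro-survival members gave values on both sides of 0. Bcl2l1 was at 98.2, 54.7 and 31.3 CPM in WT and 44.4, 34.1 and 41.7 CPM in KI/KI hearts, and WT 1 stood far above the others. Its log2 fold change was -0.61 (SE 0.37, adjusted p = 0.431, edgeR), and without WT 1 it was -0.10. Mcl1 (381.8, 329.9 and 340.0 against 364.9, 366.3 and 398.7 CPM) and Bcl2l2 (101.7, 100.5 and 94.0 against 103.7, 96.1 and 93.3 CPM) had log2 fold changes of 0.11 (SE 0.08) and -0.01 (SE 0.06), neither called by edgeR.

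On the pro-death side, the effector Bok was at 3.70, 3.33 and 3.92 CPM in WT and 3.10, 8.11 and 5.17 CPM in KI/KI hearts. KI/KI 5 was the highest and KI/KI 4 the lowest of the 6, and the log2 fold change of 0.60 (SE 0.34, adjusted p = 0.403, edgeR) became 0.19 without KI/KI 5. Bak1 stayed within 31.4 to 37.3 CPM over all 6 adult hearts, and its groups overlapped. Bid was at 1.22, 1.37 and 2.07 against 2.00, 3.10 and 2.39 CPM (log2 0.68, SE 0.27, adjusted p = 0.302, edgeR). Bcl2l11 was at 23.4, 20.0 and 21.6 against 20.7, 16.8 and 17.2 CPM (log2 -0.25, SE 0.10, adjusted p = 0.308, edgeR). Bad (10.4 to 12.2 CPM) and Bmf (6.34 to 9.30 CPM) overlapped between WT and KI/KI, with log2 fold changes of -0.04 and -0.12.
Markers also differed over the adult groups, although edgeR called 0 of them on the cardiomyocyte, fibroblast and macrophage lists, with 1, 2 and 2 at an unadjusted p under 0.05, and DESeq2 called the macrophage markers Cd68 (log2 0.58 by edgeR) and Fcgr1 (1.18) as higher. All 8 cardiomyocyte markers had negative log2 fold changes (sum 92190 to 105600 CPM in WT and 69700 to 93480 in KI/KI hearts), while the 6 fibroblast markers (1490 to 1704 against 1717 to 2721 CPM) and the 5 macrophage markers counted (176.9 to 295.6 against 300.9 to 373.8 CPM) had positive ones. KI/KI 5, the heart with the most Bcl2, Bok and Bid, also had the lowest cardiomyocyte marker sum of the adult hearts, 69700 CPM, and the highest fibroblast marker sum, 2721 CPM. The part of these differences in the member values was not tested.

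Whether the members responded differently in the models was tested as the difference between the cKO effect and the KI/KI effect over all 12 libraries. Bcl2l11 was the single member called by edgeR, with a difference of -1.42 in log2 fold change (SE 0.25, adjusted p = 0.0224), against 2.43% of the 15729 genes tested. The difference ranged from -1.58 to -1.25 when 1 heart was left out, and the call was lost without WT 1, WT 2, KI/KI 4, KI/KI 6, floxed 1, floxed 2 or cKO 5, with an adjusted p of at most 0.0703. For Bcl2 the cKO effect minus the KI/KI effect was -0.15 (SE 0.32, adjusted p = 0.841, edgeR), which did not show a difference and, with an SE of that size, did not show that the effects were equal. Without cKO 6, Bcl2l2 passed as well, with an adjusted p of 0.0405. Age, allele and the cells in which Lemd2 was altered all differed between the models and cannot be told apart.

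Levels were also compared between the control hearts of the 2 ages, P1 floxed against adult WT. P1 floxed hearts had higher Bmf (log2 1.66, SE 0.29), Bcl2l11 (1.63, SE 0.15), Bok (0.82, SE 0.19) and Bak1 (0.60, SE 0.08) than adult WT hearts, with edgeR adjusted p of 0.00165, 3.85e-05, 0.00621 and 3.50e-04. Bcl2l2 (-0.73, SE 0.07) and Mcl1 (-0.56, SE 0.09) were lower, with edgeR adjusted p of 5.94e-05 and 7.27e-04. By edgeR the 4 higher members are pro-death and the 2 lower ones pro-survival, while DESeq2 also called the pro-survival Bcl2 as higher (log2 0.39, adjusted p = 0.0398), where 31.5% of all genes were higher by DESeq2. The edgeR counts of 4 and 2 in 10 stand near the 33.4% higher and 31.8% lower of the 15183 genes tested, and the age and the mouse line of these controls cannot be told apart. Bcl2 (0.41), Bid (0.70), Bcl2l1 (-0.97) and Bad (0.19) were not called, with edgeR adjusted p of 0.0605, 0.0545, 0.0599 and 0.129. Without WT 3 all of Bcl2, Bid and Bcl2l1 passed edgeR's threshold, with adjusted p of 0.0387, 0.0264 and 0.00264, and Bcl2 passed without floxed 2 (0.0322) and Bid without floxed 1 (0.0464).

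The ratio of the summed sides, over the listed members only, with Mcl1 included and Bax left out, overlapped between mutants and their own controls. The ratio of summed pro-survival to summed pro-death RPKM stood at 5.70 ± 0.63 for WT and 5.75 ± 0.72 for KI/KI hearts, and at 2.16 ± 0.13 in floxed and 2.34 ± 0.39 in cKO hearts (SD, n = 3, with no test run on a sum over chosen members). Single hearts ranged over 2.06 to 2.31 in floxed and 2.08 to 2.79 in cKO, and so overlapped. The pro-survival sum itself did not (88.3 to 100.2 RPKM in floxed and 102.0 to 121.2 in cKO). By geometric means, or without Mcl1, the P1 ratios did not overlap, and every cKO heart lay above every floxed heart. Every P1 heart lay below every adult heart in the ratio of sums.
The make-up of the pro-death side did differ between the P1 groups. Effectors summed to 23.9 ± 2.5 RPKM in floxed and 35.3 ± 3.7 in cKO hearts, whereas BH3-only members summed to 18.9 ± 3.1 and 12.03 ± 0.43. Bcl2l11 held 16.4% to 23.4% of the pro-death sum in floxed hearts and 4.62% to 6.48% in cKO hearts, and Bak1 held 43.3% to 52.9% and 54.1% to 58.3%.

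**Figure D3:**
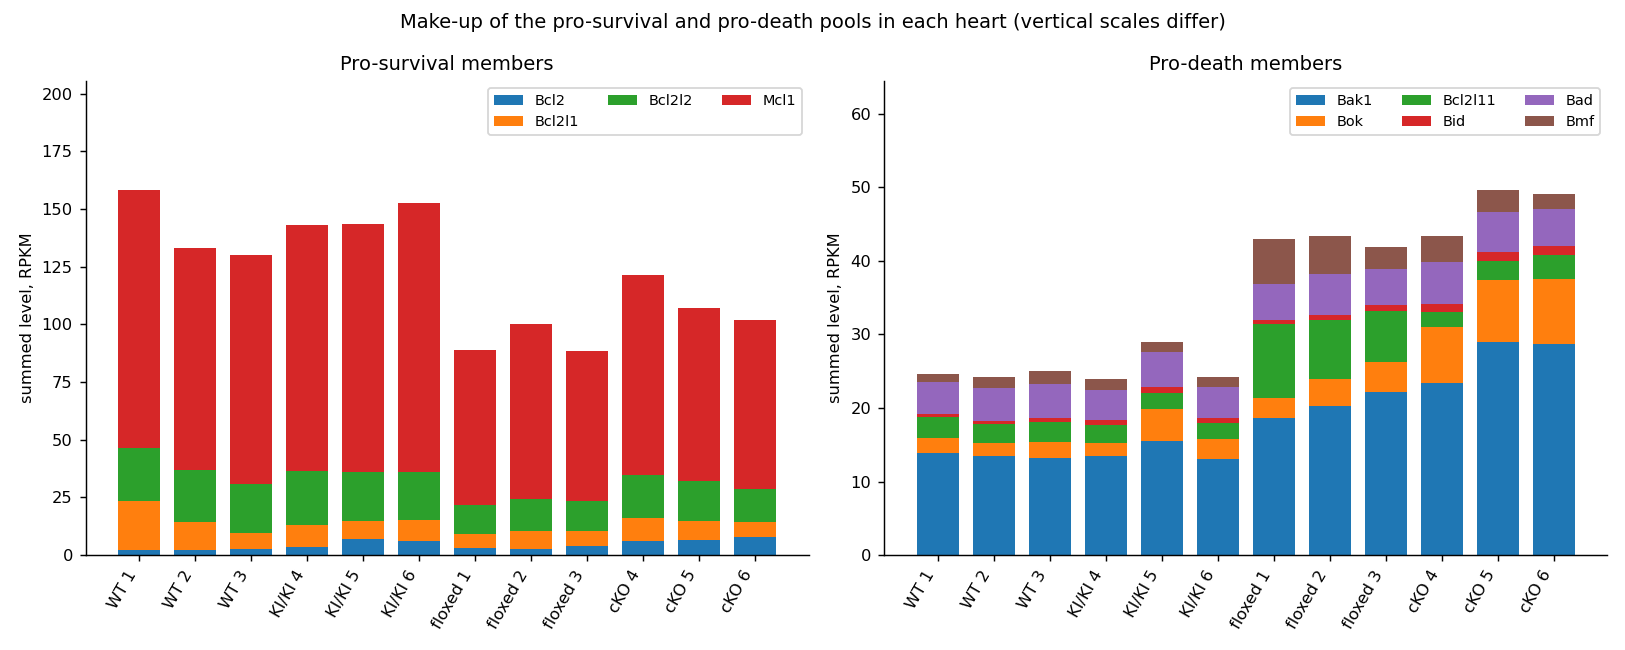
Summed RPKM (vertical axes, from 0 and on different scales) of the 4 pro-survival members (left) and the 6 pro-death members (right) in each of the 12 hearts, stacked by member. Bax is not among the members summed. Mcl1 filled 70.1% to 76.5% of every left bar, and in the P1 hearts Bcl2l11 gave way to Bak1 and Bok between floxed and cKO while the total stayed within 41.9 to 49.6 RPKM.

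Genes around the family were taken from 3 lists. Of 15 further family members, 11 were tested at P1, and 3 rose in cKO hearts while 0 fell by edgeR or DESeq2, against 9.32% and 7.57% of all genes by edgeR. Bax, the partner effector of Bak, was at 17.0, 17.9 and 19.2 CPM in floxed and 24.7, 25.4 and 23.6 CPM in cKO hearts (log2 0.45, SE 0.09, adjusted p = 0.0218, edgeR). Pmaip1, which encodes Noxa, the BH3-only protein that targets Mcl-1, was at 0.745, 0.782 and 1.28 against 3.15, 2.96 and 2.60 CPM (log2 1.63, SE 0.25, adjusted p = 0.0104, edgeR). For both genes the cKO hearts were all above the floxed hearts, so that Bax joined Bak1 and Bok among the genes that rose.
Bcl2a1b, a copy of the pro-survival gene A1, was at 0.203, 0.239 and 0.192 against 1.04, 0.938 and 1.07 CPM (log2 2.25, SE 0.28, adjusted p = 0.00712, edgeR), but it is uncertain because the A1 copies are nearly identical and reads may be split among them. Bbc3, the gene of Puma, was not called (log2 0.26, SE 0.20, adjusted p = 0.378, edgeR). In the adult comparison 10 of these genes were tested and edgeR, DESeq2 and limma-voom called 0, with 2 at an unadjusted p under 0.05, Pmaip1 (log2 1.12) and Bnip3l (log2 0.30). Pmaip1 was at 0.418, 0.397 and 0.462 CPM in WT and 0.775, 1.07 and 0.928 CPM in KI/KI hearts, which did not overlap.

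The steps downstream of the mitochondrion were followed with 22 genes, all tested. Between cKO and floxed hearts edgeR called 0 of them, with 8 at an unadjusted p under 0.05 against 34.6% of all genes. Limma-voom called 0 as well, and DESeq2 called 6 (Htra2, Birc2, Birc3, Birc5, Dffb and Sept4) against 24.8% of all genes. Apaf1, the scaffold of the apoptosome, had a log2 fold change of 0.35 (SE 0.13, adjusted p = 0.115, edgeR), and Casp9, the caspase it activates, one of -0.27 (SE 0.09, adjusted p = 0.0879, edgeR). In the adult comparison edgeR, DESeq2 and limma-voom called 0 of the 22, and Aifm1 and Endog had an unadjusted p under 0.05.
Between the control groups, 8 of the 22 were higher and 10 were lower in P1 floxed than in adult WT hearts by edgeR, against 33.4% and 31.8% of all genes. The higher genes with the smallest p included Birc5 (log2 4.0, SE 0.25), Casp2 (1.21, SE 0.09), Apaf1 (0.95, SE 0.08) and Casp6 (1.04, SE 0.10), which encode caspases, the apoptosome scaffold and survivin, a caspase inhibitor that also serves in mitosis. The 5 lower genes with the smallest p were Endog (-1.77, SE 0.19), Vdac1 (-0.71, SE 0.08), Ppif (-1.16, SE 0.13), Diablo (-0.55, SE 0.08) and Cycs (-0.80, SE 0.13), all of which encode mitochondrial proteins, among them cytochrome c (Cycs), which is also part of the respiratory chain. The cardiomyocyte marker sum was 92190 to 105600 CPM in adult WT and 52430 to 60950 CPM in floxed hearts, and the proliferation marker sum 29.3 to 58.9 against 274.9 to 390.2 CPM, and the part of these in the control differences was not tested. Of the further family members, Bik, Bax, Bnip3l, Bcl2l12 and Pmaip1 were higher in floxed hearts and Bnip3 (log2 -1.35, SE 0.08) and Bcl2l13 were lower by edgeR.

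Of 14 genes known to act on family members, 2 rose and 2 fell in cKO hearts by edgeR, against 9.32% and 7.57% of all genes. Dynll1, a dynein light chain that binds Bim, rose from 47.2, 50.3 and 53.9 to 86.8, 88.3 and 91.1 CPM (log2 0.81, SE 0.07, adjusted p = 0.00481, edgeR), and Ywhaz, a 14-3-3 protein that holds phosphorylated Bad, rose with a log2 fold change of 0.41 (SE 0.08, adjusted p = 0.0201, edgeR). Fbxw7, a ubiquitin ligase subunit that marks Mcl-1 for degradation, fell from 57.0, 56.5 and 58.1 to 32.8, 31.1 and 39.0 CPM (log2 -0.74, SE 0.09, adjusted p = 0.00716, edgeR). Foxo3, a forkhead factor known to switch on Bcl2l11, was at 27.6, 27.5 and 22.6 against 19.8, 18.4 and 15.2 CPM (log2 -0.54, SE 0.15, adjusted p = 0.0486, edgeR), a call that limma-voom did not make (adjusted p = 0.0525). Trp53 (log2 0.24, SE 0.10, adjusted p = 0.131, edgeR) and Foxo1 (log2 -0.01, SE 0.08, adjusted p = 0.933, edgeR) were not called. None of the 13 tested in the adult comparison was called by edgeR, DESeq2 or limma-voom, with Dynll1 and Akt1 at an unadjusted p under 0.05. Between the control groups, 6 of the 14 were higher and 6 lower in P1 floxed hearts by edgeR, against 33.4% and 31.8% of all genes. Foxo3 was among the lower ones (log2 -1.67, SE 0.15, adjusted p = 4.85e-05, edgeR), while Bcl2l11 was higher (log2 1.63). A link between Foxo3 and Bcl2l11 levels was not tested.

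**Figure D4:**
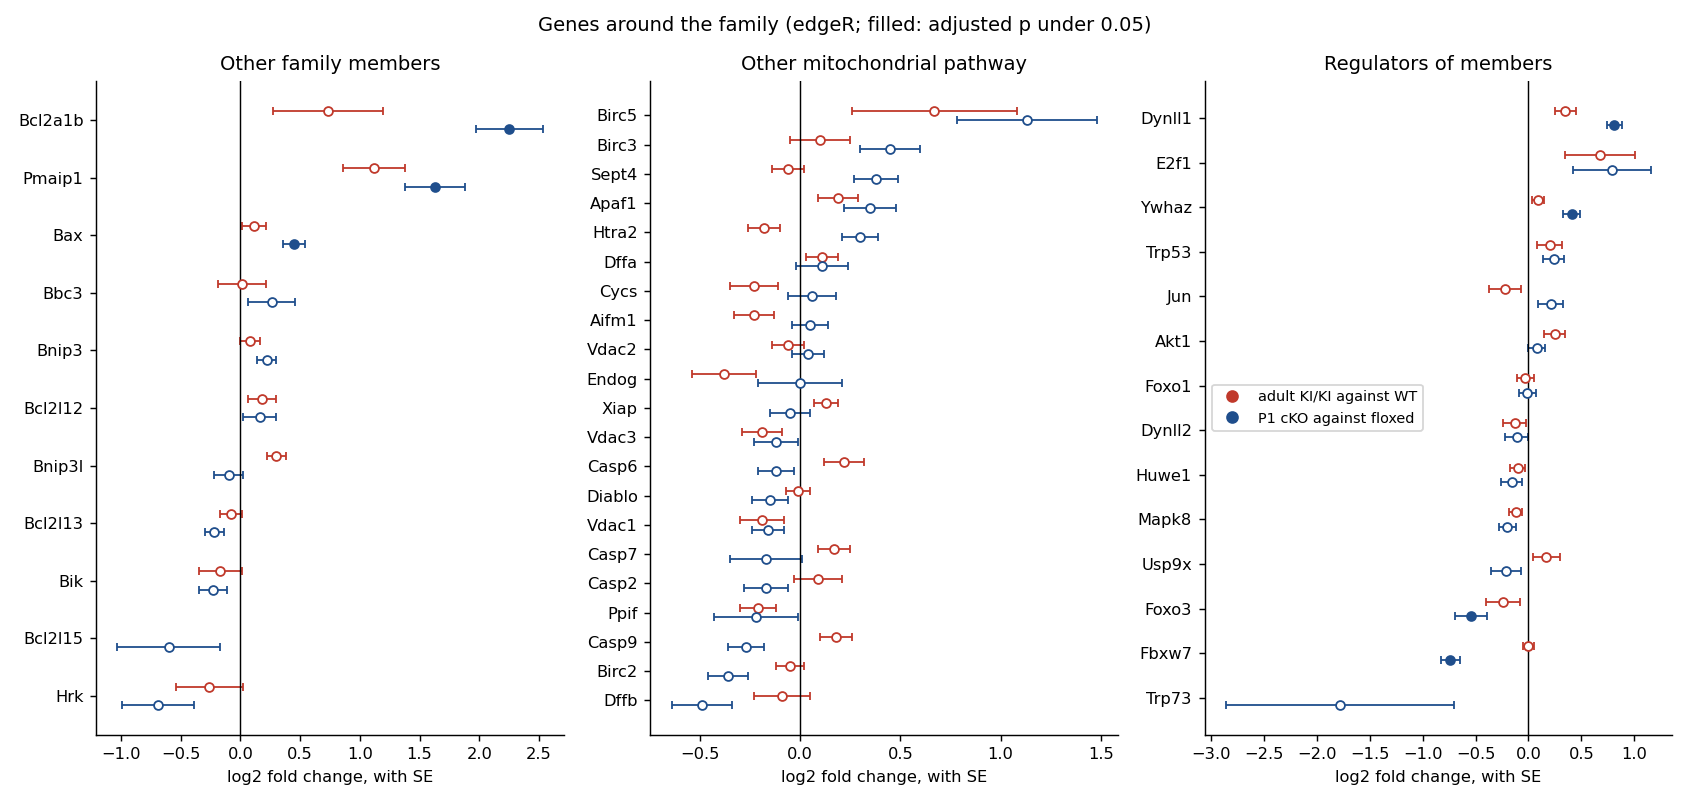
Log2 fold change (horizontal axes, on different scales) with its standard error for further family members, other genes of the mitochondrial pathway and regulators of members, in adult KI/KI against WT (red) and P1 cKO against floxed (blue), filled where edgeR's adjusted p was under 0.05. Among the cKO values, Bcl2a1b, Pmaip1, Bax, Dynll1, Ywhaz, Foxo3 and Fbxw7 are filled, and no gene of the middle panel is.

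A promoter window of Bcl2l11 is shown because it is the member that fell and because a regulator known for it was on the list. Of its 2 windows in RefSeq, each from 250 bases before to 50 bases after a start, the upstream one (GRCm38.p6, chr2:128125788-128126087, plus strand) holds the forkhead motif GTAAACA once, in capitals.
Bcl2l11 promoter: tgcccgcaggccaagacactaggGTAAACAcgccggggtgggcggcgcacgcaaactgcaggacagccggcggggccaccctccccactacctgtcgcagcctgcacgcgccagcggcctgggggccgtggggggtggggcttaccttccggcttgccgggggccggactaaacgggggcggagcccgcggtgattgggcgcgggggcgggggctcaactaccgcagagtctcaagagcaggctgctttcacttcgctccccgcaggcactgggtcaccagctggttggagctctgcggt
GTAAACA or its reverse TGTTTAC occurs in 3.65% of the 32851 promoter windows of the same length, and neither the other window of Bcl2l11 nor any window of the other 9 members, all found in RefSeq, holds it. The motifs TGAGTCA (AP-1), TGACGTCA (CRE), GGGCGG (GC box) and CCAAT were also searched for on both strands. The upstream Bcl2l11 window holds the GC box 3 times and CCAAT 1 time, and holds neither AP-1 nor CRE. The GC box occurs in 35.7% and CCAAT in 37.4% of all windows. A match describes these letters only, and binding was not measured.

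Across the 12 hearts, the genes whose log2 CPM followed each of the 5 called members most closely were, by Pearson's r, Krba1 (0.975), Ppp1r26 (0.975) and Msh3 (0.971) for Bcl2l11, and Padi4 (0.954), Kctd15 (0.952) and Camkk2 (0.941) for Bcl2. For Bok they were Pycr1 (0.989), Prkcdbp (0.987) and Actb (0.981), for Bak1 Hn1l (0.991), Tubb5 (0.990) and Gatad2a (0.989), and for Bid Hif1a (0.956), Fam198b (0.949) and Zc2hc1a (0.948). The 12 points share 4 groups and 2 ages, so these values describe a likeness of level over groups.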

How the data were processed

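RNA-Seq libraries (KAPA mRNA HyperPrep, single-end reads) were made from flash-frozen cardiac samples of 3 mice per genotype. Whether these were whole hearts is not given in the sources used here. The authors deposited raw gene counts: per the labels and methods, reads were trimmed with Trim Galore, aligned to mm10 with STAR 2.7.2b and counted with HTSeq, whose strand setting is not given in the sources used here. All 12 columns matched a labelled sample, and the study's other experiments were not analysed here.

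Each comparison was fitted over all genes with edgeR 4.0.16 (R 4.3.3; TMM scaling, filterByExpr, robust quasi-likelihood test) on the 6 libraries compared, or on all 12 for the difference between models. P-values were adjusted by the Benjamini-Hochberg method over all genes tested, and calls were made at an adjusted p under 0.05. The script was tested on simulated counts of a single dispersion, where no least number of recovered genes was required for the difference between models. Alternatives were DESeq2 1.42.0, limma-voom (limma 3.58.1), RLE scaling, other count filters, a non-robust and, chosen after seeing the data, a legacy quasi-likelihood fit, a fit of all 12 libraries, a Y-linked covariate, a fold limit of 2, unadjusted p, a replicate block and omission of each heart. RPKM used GENCODE vM21 exon lengths. All 10 members are named. From the other lists, genes past the threshold are named (for the mitochondrial list at most 5 per direction, of which 1 gene is not reported here), and for each called member the 3 genes most like it. Apaf1, Bbc3, Casp9, Trp53, Foxo1, Bcl2l13, Bnip3l, Aifm1, Endog, Akt1 and the DESeq2 calls were named after their values were seen. Of the regulators called between the control groups, only Foxo3 is named, also after its values were seen. The members, lists and tests were chosen with earlier results of these data known. Intervals were not computed for counts, and the counting floor covers counting error only.

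Replicate numbers are shared by WT and floxed and by KI/KI and cKO hearts, which are different animals of different lines, and so do not pair samples.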

Additional observations from a re-analysis of the deposited data

Results flagged for a closer look

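Bcl2l11 is listed because its effect differed between the models by a direct test: the cKO effect minus the KI/KI effect was -1.42 on the log2 scale (adjusted p = 0.0224, edgeR, over all 15729 genes tested). It was lower in 3 of 3 cKO hearts than in any floxed heart, while KI/KI and WT hearts overlapped. The call on the difference was lost in 7 of the 12 fits that left out 1 heart (adjusted p up to 0.0703, edgeR). Age, allele and the cells in which Lemd2 was altered differed between the models and cannot be told apart.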

How the results depend on the processing

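In adult KI/KI hearts, DESeq2 called 1 member as higher, an unadjusted p under 0.05 gave 2 higher and 1 lower, and leaving out 1 heart gave 0 to 1 higher. At P1, a fold limit of 2 left 2 higher members, an unadjusted p gave 2 lower, and leaving out 1 heart gave 1 to 4 higher. Between the control groups, the fold limit left 2 higher and 0 lower. For the difference between models, leaving out 1 heart gave 0 to 1 higher and 0 to 1 lower members, and the replicate block gave 0 (Bcl2l11 -1.42, adjusted p = 0.0820, edgeR). The numbers did not pair these hearts: correlations of same-numbered deviations were -0.568 to -0.264 for WT and floxed and 0.0806 to 0.259 for KI/KI and cKO. With the block, Bcl2 (adjusted p = 0.0141) and Bid (0.0230) passed between the control groups. WT and KI/KI share no numbers, nor do floxed and cKO, so no paired analysis of those comparisons was possible. A Y-linked covariate ended the Bid call at P1 (adjusted p = 0.0771, edgeR), and the fit of all 12 libraries called Bcl2l2 (0.0325). At P1 that covariate mainly set cKO 4 apart, with a mean log2 CPM of Y-linked genes of -5.3 against 5.55 to 6.1 in the other P1 hearts. It is therefore close to leaving out cKO 4. Values near 0 changed sign: at P1 Bad was -0.01 with the Y-linked covariate and 0 to 0.12 with 1 heart left out. Leaving out 1 heart gave, in adults, Bcl2l2 -0.05 to 0.02, Bmf -0.26 to 0.03, Bad -0.12 to 0 and Bak1 -0.02 to 0.11, and, for the difference between models, Bid -0.20 to 0.27, Bcl2 -0.39 to 0.07 and Mcl1 0 to 0.15. The ratio of pro-survival to pro-death levels, over the listed members only, was 6.65, 6.88, 2.56 and 3.51 in WT, KI/KI, floxed and cKO by geometric means. Without Mcl1 it was 1.54, 1.42, 0.542 and 0.674. In both of these settings every cKO heart lay above every floxed heart, so the overlap seen with the sums was lost at P1. By longest transcript the floxed ratio was 1.897, and without 1 heart the ranges were 5.35 to 5.96, 5.47 to 6.15, 2.09 to 2.21 and 2.12 to 2.48. The causes were not tested. The precision is limited by 3 hearts a group.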
